A study of Mus musculus with 29 samples.

Results

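Gastrocnemius muscle (SkM) of mice that ran on a treadmill and ate freely (EX group, n = 4) was compared with gastrocnemius of sedentary mice that ate freely (control group, n = 4). These 8 libraries, chosen by their group labels alone, are part of 29 in the series, and each came from a different mouse. All mice were male C57BL/6J wild types with no engineered allele. The intervention began at 8 weeks of age and lasted 8 weeks, and neither group was calorie restricted. EX mice ran for 1 h at 12 m/min on a 5° incline on 5 days per week, each time after a 3 h fast. Muscle was taken 24 h after the last bout and after a 6 h fast. The hour of the day at which each group was dissected is not given in the sources used here. Whole muscle was sequenced, so fewer cells of a type and less RNA per cell cannot be told apart.

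Endurance training is known for raising mitochondrial content, capillary supply and the capacity to burn fat in skeletal muscle. Peroxisome proliferator-activated receptors (PPARs) are nuclear receptors that sense fatty acids and switch on genes of fatty acid uptake, storage and oxidation. The circadian clock is a feedback loop in which BMAL1 (gene Arntl) and CLOCK switch on the Per and Cry genes, whose proteins then block BMAL1 and CLOCK, while REV-ERB proteins (Nr1d1 and Nr1d2) repress Arntl. Muscle has its own clock, which can be shifted by feeding and by the timing of exercise.

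Each library held 23050928 to 23256578 counts, and 17315 to 17641 genes had at least 1 count. A gene with 3 counts stood at 0.129 to 0.130 CPM, the count scaled to the library total, and this limit covers counting error only. All 12 skeletal muscle markers were detected, with a summed level of 119000 to 136000 CPM in the EX group and 111000 to 122000 CPM in the control group. Of 11 lymphocyte markers in the table, 6 had 3 counts or fewer in every library. EX replicate 1 stood apart, with the highest adipocyte marker level and the lowest slow fibre level of the 8 libraries. It also had the highest summed levels of tendon markers (88.3 CPM), erythroid markers (1021 CPM) and extracellular matrix genes (1717 CPM). Control replicates 1 and 4 differed most from each other among the replicate pairs.

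Few genes were called different between EX and control gastrocnemius. Among 12907 genes tested with edgeR, 10 were differentially expressed genes (DEGs, with a Benjamini-Hochberg adjusted p below 0.05 and more than a 1.5-fold difference), which is 0.0775% of the genes tested. Of these, 3 (0.0232%) rose in the EX group (Socs2, Nrip1 and Aqp4) and 7 (0.0542%) fell (Acot1, Arntl, Acot2, Gabarapl1, Ppp1r15a, Tmem140 and Ehhadh). The EX and control libraries did not overlap for any of the 10. They encode enzymes of fatty acid handling, a clock activator, regulators of nuclear receptor and cytokine signalling, a stress phosphatase regulator, an autophagosome protein, a water channel and a membrane protein. Fold changes are given as log2FC, the fitted log2 fold change of EX over control, ± its standard error.

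Across all genes the median log2 fold change was 0.0002, with quartiles at -0.095 and 0.097. An unadjusted p under 0.05 was found for 405 genes higher in the EX group (3.14%) and 479 lower (3.71%). The libraries did not overlap for 243 genes higher (1.88%) and 309 lower (2.39%). DESeq2 on the same libraries called 52 DEGs (0.403%), among them all 10. Besides the DESeq2 calls given with genes below, the 52 held Esrrg, Hspa1a, Cdkn1a, Pank1, Fabp3, Slc25a34, Zfp36, Fbn1 and Mcpt4. The number of DEGs was 31 without the filter on low counts, and 1 edgeR fit over all muscle groups called none (546 genes with an unadjusted p under 0.05). With each library left out in turn the number ran from 1, without control replicate 3, to 19, without control replicate 4.

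**Figure D1:**
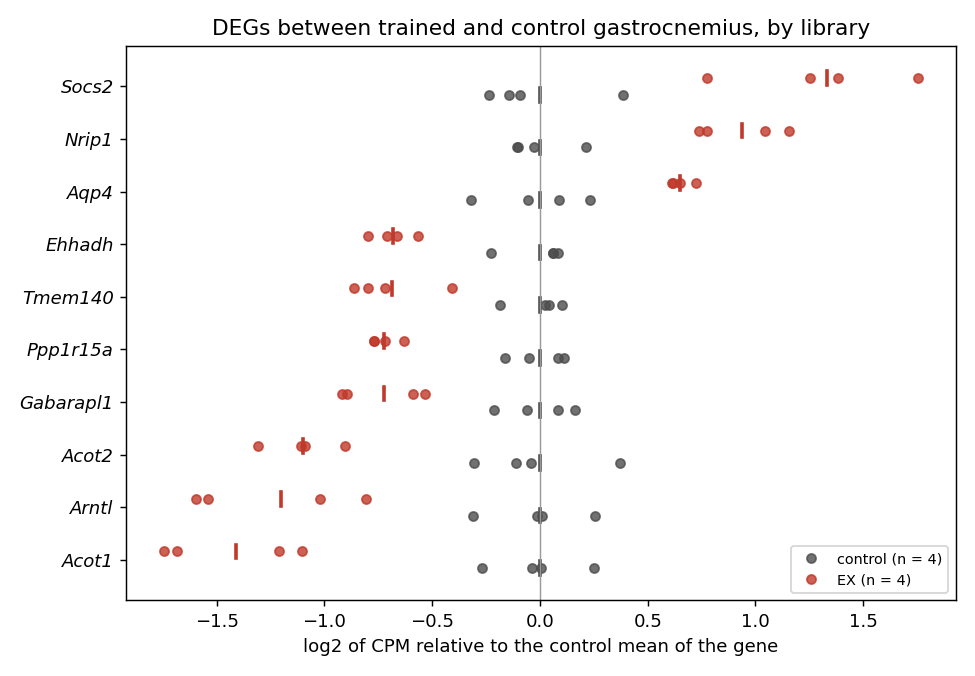
Each point is 1 library, on the log2 scale of its CPM relative to the control mean of the same gene, for the 10 DEGs (grey, control, n = 4; red, EX, n = 4; short vertical lines, group means). In all 10 genes the EX points lie entirely to one side of the control points. The fitted log2 fold changes of these genes, which are not plotted, run from 1.33 for Socs2 to -1.40 for Acot1.

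Principal components were taken on the 500 genes that varied most. PC1 carried 28.76% of the variance and did not separate the groups (two-sided exact permutation test, p = 0.8286). Its largest loadings were those of the adipocyte genes Adipoq, Cfd and Cidec, and EX replicate 1 had the lowest score on it. The second component carried 20.84%, and no EX score overlapped a control score (exact two-sided permutation test, p = 0.0286, the smallest p that 4 libraries against 4 can give). Loadings of the tendon gene Chad and of the slow fibre genes Tnnc1, Myh7 and Tnni1 were among its largest. With all filtered genes in place of the 500, the groups were not separated on the second component (exact permutation p = 0.600).

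Fatty acid handling held 3 of the 7 DEGs that fell. Acot2 encodes the mitochondrial acyl-CoA thioesterase, which releases free fatty acid and coenzyme A from acyl-CoA inside mitochondria. It stood at 20.8, 20.5, 23.6 and 17.9 CPM in the EX libraries and at 41.0, 43.0, 57.3 and 35.8 CPM in the control libraries. Every EX value lay below every control value, and the level fell 2.14-fold (log2FC -1.10 ± 0.14, edgeR adjusted p = 0.00988). Acot1, the cytosolic thioesterase of the same family, stood at 1.69, 1.17, 1.21 and 1.82 CPM in the EX libraries. Its control values were 3.81, 3.92, 4.64 and 3.24 CPM, all above the EX values, and it fell 2.65-fold (log2FC -1.40 ± 0.19, edgeR adjusted p = 0.0138). Both genes lie on chromosome 12 (GRCm38), Acot2 from 83987861 to 83993877 and Acot1 from 84009502 to 84017670. They are close paralogs, and the estimated counts could divide shared reads between them, so the split between them is uncertain. Acot6, a further member of this cluster named after its values were seen, stood at 1.12 CPM on average in the EX group and had a log2 fold change of -0.07 ± 0.25.

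Ehhadh encodes the bifunctional enzyme of peroxisomal beta-oxidation and lies on chromosome 16 from 21761285 to 21787834. Its levels were 6.32, 6.78, 5.76 and 6.12 CPM in the EX group and 10.5, 8.54, 10.4 and 10.6 CPM in the control group. The control range began above the highest EX library, and Ehhadh fell 1.60-fold (log2FC -0.68 ± 0.11, edgeR adjusted p = 0.0279). All of these genes are well known targets of PPAR alpha.

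Over a list of 38 PPAR target genes, 37 were tested, of which 3 were DEGs (Acot1, Acot2 and Ehhadh) and all 3 fell, against 0.0542% of all genes. The list was chosen with the study's naming of PPAR signalling for this comparison in view, so its count is not independent evidence of direction. Fitted values were lower in the EX group for 29 members and higher for 8, with a median log2 fold change of -0.19 against 0.0002 over all genes. The libraries did not overlap for 9 members, all lower in the EX group (2.39% of all genes), and no member was higher without overlap (1.88% of all genes). Besides the DEGs these were Plin5, Cd36, Acsl1, Cpt1b, Hadhb and Hadha. The 4 members with the largest positive values, Adipoq, Pck1, Cidec and Scd1, are abundant in adipocytes and had standard errors above 1 on the log2 scale. Without EX replicate 1 the log2 fold change of Adipoq was -1.88 and that of Cidec -1.62, against 2.07 and 1.69 with it.

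Plin5 encodes perilipin 5, which coats lipid droplets beside mitochondria. Its levels were 22.2, 22.8, 22.4 and 13.4 CPM in the EX group and 38.5, 36.6, 38.7 and 29.4 CPM in the control group. The groups were apart, but the adjusted p missed the threshold (log2FC -0.83 ± 0.15, edgeR adjusted p = 0.0989), whereas DESeq2 called it. Cd36, the fatty acid transporter of the plasma membrane, stood at 209, 205, 191 and 154 CPM in the EX group and at 255, 250, 265 and 257 CPM in the control group (log2FC -0.43 ± 0.10, edgeR adjusted p = 0.164). Acsl1, which activates long-chain fatty acids to acyl-CoA, had a log2FC of -0.36 ± 0.10 (edgeR adjusted p = 0.281). Cpt1b, the muscle carnitine palmitoyltransferase that admits them to mitochondria, had one of -0.19 ± 0.08. These 4 genes were lower in every EX library than in any control library.

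Pdk4, the pyruvate dehydrogenase kinase that spares glucose, stood at 786, 404, 293 and 378 CPM in the EX group and at 638, 583, 642 and 824 CPM in the control group. EX replicate 1 lay within the control range and the other EX libraries below it (log2FC -0.53 ± 0.28, edgeR adjusted p = 0.812). Without EX replicate 1 the value was -0.91. Angptl4, a secreted inhibitor of lipoprotein lipase, ranged from 0.949 to 4.98 CPM in the EX group and from 3.96 to 10.7 CPM in the control group (log2FC -1.15 ± 0.52). Without control replicate 3 its value was -0.75. Both genes respond to fasting and to bouts of exercise, and their groups overlapped here.

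**Figure D2:**
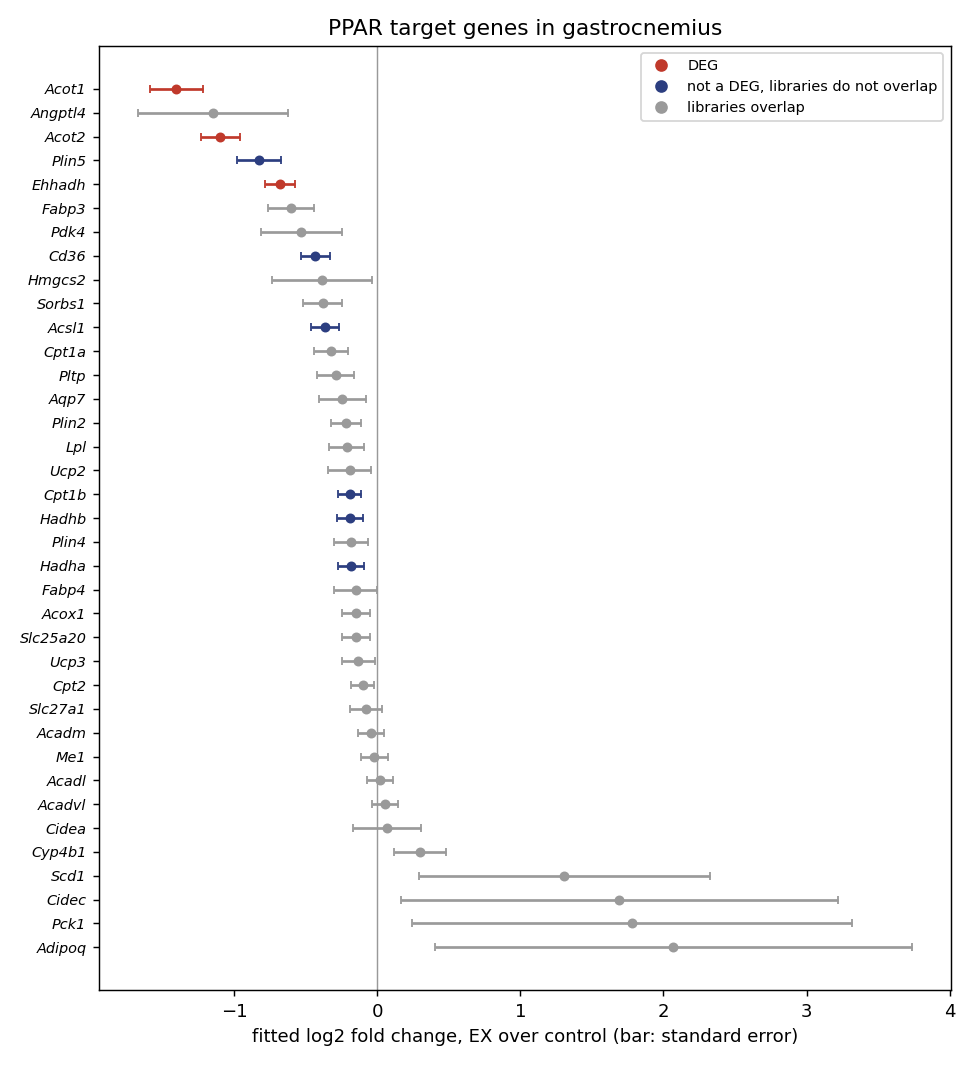
Points are fitted log2 fold changes, EX over control, of the 37 tested PPAR target genes, with bars for the standard error (4 EX against 4 control libraries). The 3 DEGs (red) and the 6 further genes whose libraries do not overlap (blue) are all left of 0, and the 4 genes farthest to the right have the widest bars.

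Further genes of fatty acid metabolism had lower values without reaching the threshold. Of 23 genes of mitochondrial fatty acid oxidation, 18 had negative log2 fold changes, with a median of -0.10, and none was a DEG. Of 19 genes of lipolysis and lipid droplets, 13 were negative, with a median of -0.16. Without control replicate 1 the first median was -0.0454, and without EX replicate 4 they were -0.058 and -0.0766. Pank1, Mlycd, Fabp3 and Slc25a34 were noticed after their values were seen. Pank1 encodes a pantothenate kinase, which starts the synthesis of coenzyme A, and its level was 14.8 to 21.4 CPM in the EX group and 25.7 to 31.0 CPM in the control group (log2FC -0.67 ± 0.12, edgeR adjusted p = 0.0702). Mlycd, which breaks down malonyl-CoA, had a log2FC of -0.46 ± 0.10 (edgeR adjusted p = 0.152). Fabp3, the fatty acid binding protein of heart and muscle, had one of -0.60 ± 0.16 (edgeR adjusted p = 0.262), with 368 to 433 CPM against 401 to 764 CPM. Slc25a34, a mitochondrial carrier, had one of -0.65 ± 0.15 (edgeR adjusted p = 0.158).

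Nrip1, which encodes the corepressor RIP140, rose. RIP140 is known for holding down the activity of nuclear receptors, PPARs and oestrogen-related receptors among them, at genes of oxidative metabolism in muscle. The gene lies on chromosome 16 from 76287403 to 76373827. Its levels were 22.4, 24.2, 18.6 and 18.1 CPM in the EX group and 12.6, 10.1, 10.1 and 10.7 CPM in the control group. All EX libraries were above all control libraries, and Nrip1 rose 1.92-fold (log2FC 0.94 ± 0.12, edgeR adjusted p = 0.00988).

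Of 27 genes of mitochondrial biogenesis, 13 had positive and 14 negative values, and the 2 with the smallest p were oestrogen-related receptors, nuclear receptors that drive mitochondrial genes. Esrrg stood at 18.2, 19.1, 13.8 and 17.6 CPM in the EX group and at 22.9, 31.9, 23.6 and 41.0 CPM in the control group (log2FC -0.80 ± 0.18, edgeR adjusted p = 0.173). Esrrb had a log2FC of -0.50 ± 0.15 (edgeR adjusted p = 0.380). Neither gene's groups overlapped. Ppargc1a, the coactivator PGC-1 alpha that is best known for its response to exercise, ranged from 23.0 to 33.8 CPM in the EX group and from 18.4 to 34.1 CPM in the control group (log2FC 0.17 ± 0.19).

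Structural genes of mitochondria showed no DEG. Nuclear subunits of the respiratory chain had positive values for 51 of 78 genes and a median of 0.03. Genes of the tricarboxylic acid cycle had positive values for 17 of 19, with a median of 0.08. Idh3a, a subunit of isocitrate dehydrogenase, was 529 to 587 CPM in the EX group and 461 to 514 CPM in the control group without overlap (log2FC 0.17 ± 0.08, edgeR adjusted p = 0.747). Control replicates 1 and 4 had the highest and the lowest mean level of the respiratory chain list, and its median ran from -0.06 to 0.16 over the other settings. Transcripts of the mitochondrial genome were negative for 11 of 13, with a median of -0.03.

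**Figure D3:**
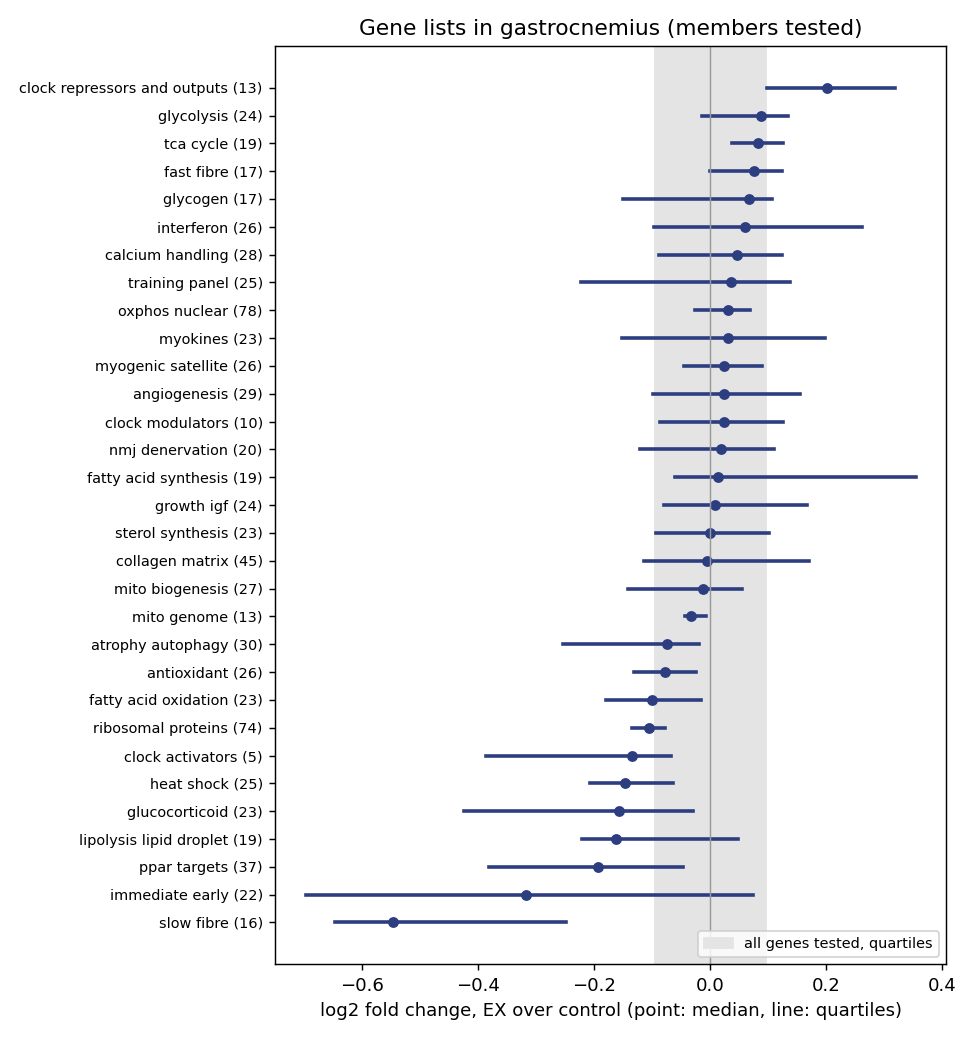
Points are medians and lines quartiles of the fitted log2 fold change, EX over control, over the tested members of each list (their number in parentheses), and the grey band holds the quartiles of all 12907 genes. Marker lists of cell types are not plotted. Among the lists plotted, clock repressors and outputs have the highest median, 0.20, and slow fibre genes the lowest, -0.55.

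Clock genes held 1 DEG, Arntl. Transcripts of the clock cycle over the day, and the hour of dissection of either group is not given, so training and a difference in hour cannot be told apart in the values that follow. It encodes BMAL1, the activator at the centre of the clock, and lies on chromosome 7 from 113178471 to 113314126. Arntl stood at 7.10, 4.96, 4.77 and 8.24 CPM in the EX group and at 11.6, 17.2, 14.5 and 14.3 CPM in the control group. No EX library reached the lowest control library, and Arntl fell 2.30-fold (log2FC -1.20 ± 0.17, edgeR adjusted p = 0.0279). Of the 5 tested activators and genes under REV-ERB control, 4 had negative values, with a median of -0.13. The libraries did not overlap for 2 members, both lower in the EX group (2.39% of all genes), Arntl and a member not reported here. Clock, the partner of BMAL1, ranged from 8.97 to 12.1 CPM in the EX group and from 9.84 to 17.0 CPM in the control group (log2FC -0.39 ± 0.15, edgeR adjusted p = 0.638). Rora and Nfil3 had log2 fold changes of 0.03 and -0.07.

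Of 13 clock repressors and output genes, 11 had positive values, none was a DEG, and the median was 0.20 against 0.0002 over all genes. This list too was chosen with the study's naming of circadian rhythm in view and gives no independent evidence of direction. The libraries did not overlap for 4 members, Per2, Per3, Hlf and Cry2, all higher in the EX group (1.88% of all genes). Per2, a repressor of BMAL1 and CLOCK, stood at 18.5, 26.2, 26.6 and 14.4 CPM in the EX group and at 11.7, 6.74, 8.24 and 10.01 CPM in the control group. Its 2.34-fold difference missed the threshold (log2FC 1.23 ± 0.22, edgeR adjusted p = 0.0989), whereas DESeq2 called it (adjusted p = 7.0e-06). Per3 stood at 37.7, 46.8, 61.9 and 31.2 CPM in the EX group and at 28.3, 24.4, 29.6 and 29.2 CPM in the control group (log2FC 0.67 ± 0.18, edgeR adjusted p = 0.297). The lowest EX library was close to the highest control library for this gene, which DESeq2 called (adjusted p = 0.029). Hlf, an output factor of the PAR bZIP family, stood at 12.6, 14.3, 14.8 and 12.3 CPM against 8.77, 8.68, 8.24 and 11.2 CPM (log2FC 0.55 ± 0.12, edgeR adjusted p = 0.152). Cry2, a partner of the PER proteins, had a log2 fold change of 0.23 ± 0.10.

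Further clock members had libraries that overlapped between the groups. Nr1d1, which encodes REV-ERB alpha, the repressor of Arntl, had a negative value (140, 99.7, 124 and 174 CPM in the EX group, 143, 232, 250 and 185 CPM in the control group, log2FC -0.59 ± 0.20, edgeR adjusted p = 0.491). Nr1d2, its close relative, had one of 0.21 ± 0.10. Per1 varied most, from 19.8 to 59.0 CPM in the EX group and from 26.3 to 70.8 CPM in the control group (log2FC -0.09 ± 0.44). The output factors Dbp and Tef had log2 fold changes of 0.32 ± 0.17 and 0.17 ± 0.09. For Cry1 the value was 0.14, for Ciart 0.09, for Bhlhe40 0.10 and for Bhlhe41 0.20, each with a standard error from 0.11 to 0.24. The sign of Per1, Ciart, Rora and Nfil3 depended on which library was left out.

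**Figure D4:**
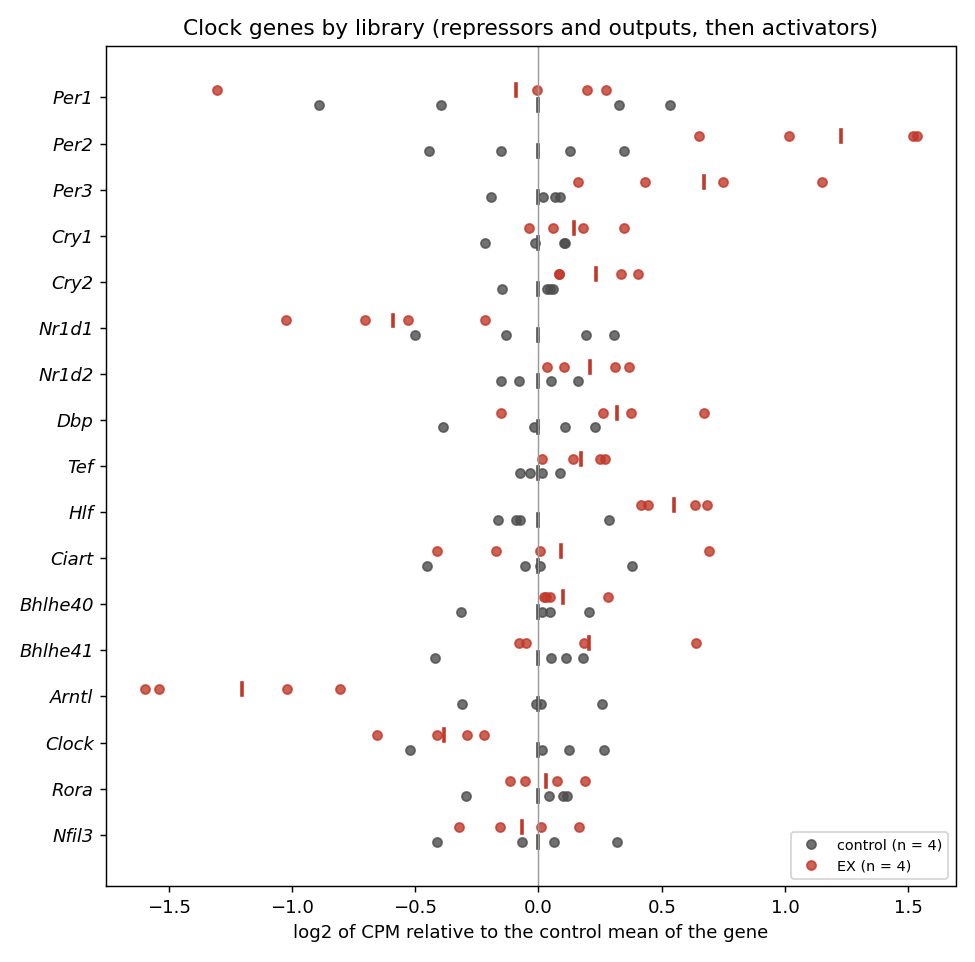
Each point is 1 library, on the log2 scale of its CPM relative to the control mean of the same gene, for 17 tested clock genes (grey, control, n = 4; red, EX, n = 4; short vertical lines, group means). Red points lie clear of grey points to the right for Per2, Per3, Cry2 and Hlf and to the left for Arntl. Both colours overlap for the other genes plotted, and not every tested clock gene is plotted.

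Promoter sequence is shown for clock members because BMAL1 with CLOCK binds E-boxes, and DBP, TEF and HLF bind D-boxes, in the genes they drive. In RefSeq windows from 250 bases before to 50 after each start (GRCm38.p6, 27025 genes, both strands searched), the E-box letters CACGTG were found in 8.09% of genes and the D-box letters TTATGTAA in 1.11%. Of the 13 repressors and outputs, 11 had a window, and 5 of these (45.5%) held CACGTG, namely Per1, Cry1, Tef, Ciart and Bhlhe41. The EX and control libraries overlapped for each of these 5 genes. Per2 and Bhlhe40 had no entry. Per3 was the only one of the 11 to hold TTATGTAA, beginning at 205 and at 158 bases before the start. Both windows below are on the minus strand and lie upstream of the start, Per3 at chr4:151044786-151044885 and Ciart at chr3:95882259-95882358, with the D-boxes of Per3 and the E-boxes of Ciart in capitals.
Per3: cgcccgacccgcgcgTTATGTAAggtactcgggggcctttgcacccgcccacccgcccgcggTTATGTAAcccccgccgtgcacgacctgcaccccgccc
Ciart: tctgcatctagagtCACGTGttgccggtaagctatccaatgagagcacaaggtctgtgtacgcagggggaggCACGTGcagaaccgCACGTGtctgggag
Per3 has 2 D-boxes and its libraries did not overlap, while Ciart has 3 E-boxes and a log2 fold change of 0.09 with a standard error of 0.24. A match of letters is a description and not a site shown to be bound.

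Ppp1r15a fell, with the smallest p of all genes. It encodes GADD34, a regulatory subunit that directs protein phosphatase 1 to the translation factor eIF2 alpha and so ends the translational block of the stress response. Its levels were 19.95, 20.7, 19.97 and 22.0 CPM in the EX group and 30.5, 36.9, 36.1 and 32.9 CPM in the control group. The EX libraries lay close together and well below the control libraries, and Ppp1r15a fell 1.65-fold (log2FC -0.72 ± 0.08, edgeR adjusted p = 0.00988). The 100 bases before its start hold the cyclic AMP response element TGACGTCA, beginning 12 bases before the start, as do those of Hlf, beginning 9 bases before it. These letters were found in 2.03% of genes with a window, and among the 8 DEGs with a window in Ppp1r15a alone. Both windows are on the minus strand, Ppp1r15a at chr7:45526269-45526368 and Hlf at chr11:90390918-90391017, with the element in capitals.
Ppp1r15a: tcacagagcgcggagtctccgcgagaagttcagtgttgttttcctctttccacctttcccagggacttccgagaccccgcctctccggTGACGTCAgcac
Hlf: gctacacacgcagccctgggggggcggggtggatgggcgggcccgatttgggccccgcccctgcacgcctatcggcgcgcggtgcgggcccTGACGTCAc
The genes carry the same element and had values of opposite sign, Ppp1r15a with a log2 fold change of -0.72 and Hlf with one of 0.55. Among 19 immediate early genes with a window, 3 (15.8%) also held the element, Btg2, Maff and Dusp1. Whether the element goes with a direction of change was not tested.

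Immediate early genes, which respond within minutes to contraction, growth factors or handling, had no DEG. Of 22 tested, 13 had negative values and the median was -0.32, and 5 were lower in the EX group without overlap (2.39% of all genes), among them Junb, Nr4a1, Ier2 and Dusp1. An unadjusted p under 0.05 was found for 10 members with lower values (3.71% of all genes) and for 2 with higher values (3.14% of all genes). The 2 with higher values were Ier5 and Myc, which were named after their values were seen. Junb, a subunit of the AP-1 transcription factor, stood at 7.27, 6.52, 6.63 and 7.67 CPM in the EX group and at 10.4, 14.6, 20.3 and 11.6 CPM in the control group (log2FC -1.02 ± 0.18, edgeR adjusted p = 0.0782). Fos, its partner, was 1.95 to 3.64 CPM against 2.66 to 9.45 CPM (log2FC -1.25 ± 0.36, edgeR adjusted p = 0.399). DESeq2 called both. Nr4a1, an orphan nuclear receptor, was 137 to 160 CPM against 170 to 226 CPM (log2FC -0.36 ± 0.10, edgeR adjusted p = 0.311). Zfp36, which speeds the decay of cytokine mRNAs and was noticed after its values were seen, was 8.86 to 16.1 CPM against 19.6 to 29.0 CPM (log2FC -0.87 ± 0.17, edgeR adjusted p = 0.141). The control libraries varied more than the EX libraries for Junb and Fos.

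Heat shock genes, which encode chaperones, were negative for 21 of 25, with a median of -0.15 and no DEG. Hspa1a, the inducible HSP70, stood at 5.19, 6.60, 4.72 and 7.98 CPM in the EX group and at 8.51, 9.69, 10.4 and 10.4 CPM in the control group (log2FC -0.67 ± 0.15, edgeR adjusted p = 0.152). Dnajb5, an HSP40 cochaperone, was 150 to 164 CPM against 192 to 201 CPM (log2FC -0.32 ± 0.08, edgeR adjusted p = 0.173). Both genes were apart between the groups.

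Gabarapl1, which encodes a protein of the ATG8 family that coats autophagosomes, fell. It lies on chromosome 6 from 129533192 to 129542331. Its levels were 41.3, 42.9, 33.4 and 32.9 CPM in the EX group and 65.9, 69.6, 53.6 and 59.5 CPM in the control group. The groups did not overlap, and the level fell 1.65-fold (log2FC -0.72 ± 0.11, edgeR adjusted p = 0.0279). Gabarapl1 was the 1 DEG among 30 genes of atrophy and autophagy (0.0542% of all genes were DEGs that fell). Of the 30, 25 had negative values, and their median of -0.07 lay within the quartiles of all genes (-0.095 and 0.097). Trim63, the muscle ubiquitin ligase MuRF1, was 120, 115, 85.3 and 107 CPM in the EX group and 131, 150, 144 and 153 CPM in the control group (log2FC -0.43 ± 0.11, edgeR adjusted p = 0.198). Fbxo32, the ligase atrogin-1, overlapped between the groups (log2FC -0.50 ± 0.19, edgeR adjusted p = 0.609). Cdkn1a, the cell cycle inhibitor p21, was 4.96 to 11.8 CPM against 9.56 to 21.2 CPM (log2FC -1.01 ± 0.30, edgeR adjusted p = 0.448). Trim63 and Cdkn1a are also glucocorticoid targets, and over 23 tested genes of that list 18 had negative values, with a median of -0.16 and no DEG, and the median ran from -0.349 without EX replicate 1 to -0.0554 without EX replicate 4.

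Socs2 had the largest increase of the 3 DEGs that rose. It encodes a suppressor of cytokine signalling that is induced by growth hormone and damps its receptor. The gene lies on chromosome 10 from 95383903 to 95417321. Its levels were 12.1, 8.72, 17.2 and 13.2 CPM in the EX group and 4.61, 6.65, 4.77 and 4.32 CPM in the control group. Every EX library was above every control library, and Socs2 rose 2.52-fold (log2FC 1.33 ± 0.20, edgeR adjusted p = 0.0279). Igf1, another gene induced by growth hormone, was 4.94 to 10.8 CPM against 5.32 to 6.21 CPM (log2FC 0.39 ± 0.20), and without EX replicate 4 its value was 0.18. Of 24 tested genes of insulin-like growth factor and growth signalling, 13 were positive, with a median of 0.01.

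Aqp4, the water channel of fast fibres, rose 1.57-fold, from 25.3, 27.9, 21.03 and 30.9 CPM in the control group to 40.2, 40.1, 43.4 and 41.2 CPM in the EX group (log2FC 0.65 ± 0.11, edgeR adjusted p = 0.0382). The EX libraries agreed closely and lay above the control libraries. Tmem140, a transmembrane protein gene on chromosome 6 from 34863146 to 34874946, fell 1.61-fold. Its levels were 28.5, 30.1, 27.2 and 37.3 CPM in the EX group and 53.2, 50.4, 51.1 and 43.6 CPM in the control group (log2FC -0.69 ± 0.11, edgeR adjusted p = 0.0279). Twf2, the actin-binding protein twinfilin 2, passed the adjusted p but not the fold change minimum (log2FC -0.58 ± 0.09, edgeR adjusted p = 0.0279).

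Chrna2, Tfrc, Chac1 and Slc7a2, which had small p and no overlap, were noticed after their values were seen. Chrna2, an acetylcholine receptor subunit, was 1.38 to 2.73 CPM in the EX group and 3.66 to 4.90 CPM in the control group (log2FC -1.09 ± 0.19, edgeR adjusted p = 0.0571). Tfrc, the transferrin receptor that takes up iron, was 57.1 to 112 CPM against 37.5 to 49.0 CPM (log2FC 0.91 ± 0.18, edgeR adjusted p = 0.152). Chac1, which degrades glutathione, was 56.3 to 99.98 CPM against 38.8 to 54.7 CPM (log2FC 0.74 ± 0.17, edgeR adjusted p = 0.164). Slc7a2, a transporter of cationic amino acids, was 35.7 to 45.7 CPM against 16.3 to 32.0 CPM (log2FC 0.66 ± 0.17, edgeR adjusted p = 0.235). Bdnf, a neurotrophin listed among myokines, was 0.266 to 0.691 CPM against 0.975 to 1.64 CPM (log2FC -1.36 ± 0.29, edgeR adjusted p = 0.152). None of these 5 genes was a DEG in edgeR, and DESeq2 called all of them.

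A panel of 25 genes often followed in trained muscle had no DEG, with 14 positive and 11 negative values and a median of 0.04. Vegfa, the growth factor of capillaries, was 188 to 225 CPM in the EX group and 175 to 217 CPM in the control group (log2FC 0.03 ± 0.10). Slc2a4, the insulin-responsive glucose transporter GLUT4, had a log2 fold change of 0.07 ± 0.09, and Hk2, hexokinase 2, one of 0.20 ± 0.12. Cs, citrate synthase, had one of 0.16 ± 0.09, Cox4i1 of the respiratory chain one of 0.14 ± 0.11 and Tfam, which maintains mitochondrial DNA, one of 0.04 ± 0.07. Mb, myoglobin, had one of 0.04 ± 0.14, Sod2, mitochondrial superoxide dismutase, one of 0.14 ± 0.08 and Prkaa2, the AMPK alpha 2 subunit, one of 0.17 ± 0.11. Groups overlapped for each of these 9 genes. Ucp3, Lpl and Perm1 had values of -0.13, -0.21 and -0.22, Fndc5 and Mstn of 0.05 and 0.19, and Hspa1b and Nr4a3 of -0.35 and -0.95.

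Myosin heavy chain genes, which define fibre types, were not DEGs. Myh4 of type IIb fibres was the most abundant, with a log2 fold change of 0.09 ± 0.16. Myh1 of type IIx fibres stood at 5418, 4350.4, 2517 and 3266 CPM in the EX group and at 1816, 2485, 2595.5 and 3344 CPM in the control group (log2FC 0.60 ± 0.24, edgeR adjusted p = 0.668). Myh2 of type IIa fibres had a value of -0.0002 ± 0.21. Myh7 of slow fibres stood at 13.9, 398, 652 and 156 CPM in the EX group and at 174, 583, 464 and 766 CPM in the control group (log2FC -0.70 ± 1.03, edgeR adjusted p = 0.978). EX replicate 1 held the lowest Myh7 level by far, and without it the log2 fold change was -0.31.

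Slow fibre genes had negative values for 14 of 16 and a median of -0.55, with no DEG, and the median was -0.329 without EX replicate 1. Their summed level was 790 to 2590 CPM in the EX group and 1800 to 2630 CPM in the control group. Myoz2, a calsarcin of slow fibres, was 123 to 146 CPM against 154 to 248 CPM without overlap (log2FC -0.53 ± 0.14, edgeR adjusted p = 0.234). Ldhb, the lactate dehydrogenase subunit of oxidative muscle, was 315 to 361 CPM against 377 to 501 CPM, also without overlap (log2FC -0.32 ± 0.11, edgeR adjusted p = 0.492). Myl2 and Myl3, slow myosin light chains, had values of -0.60 ± 0.33 and -0.36 ± 0.13. Slow fibre genes also had large loadings on the second principal component, and their part in the difference of other genes was not tested. Fast fibre genes were positive for 13 of 17, with a median of 0.08.

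Markers of other cells differed between libraries as well. Of 9 tested tendon genes, 8 had positive values, with a median of 1.08, and 5 were higher with an unadjusted p under 0.05 (3.14% of all genes). The median was 0.656 without EX replicate 1 and 0.275 over the members with at least 10 counts in every library. Their summed level was 53.8 to 88.3 CPM in the EX group and 44.9 to 52.2 CPM in the control group, without overlap. Tnmd, tenomodulin, was 2.38, 0.820, 1.43 and 0.931 CPM in the EX group and 0.133, 0.396, 0.520 and 0.480 CPM in the control group (log2FC 1.84 ± 0.42, edgeR adjusted p = 0.162). Fmod, fibromodulin, was 11.3 to 26.0 CPM against 3.50 to 10.9 CPM (log2FC 1.44 ± 0.41, edgeR adjusted p = 0.452). Chad, chondroadherin, overlapped by 1 library in each group and had the largest value of the list (log2FC 2.31 ± 0.51, edgeR adjusted p = 0.168). DESeq2 called Tnmd and Chad, and neither was a DEG in edgeR. The part of tendon RNA in the other results was not tested.

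Macrophage markers were negative for 11 of 11 tested, with a median of -0.53, and no marker was a DEG or without overlap. Their summed level was 40.1 to 65.1 CPM in the EX group and 56.8 to 105 CPM in the control group. Csf1r, the receptor that macrophages depend on, had a log2FC of -0.53 ± 0.22 (edgeR adjusted p = 0.681), and H2-Eb1, a class II antigen presentation gene, one of -0.61 ± 0.22 (edgeR adjusted p = 0.544). Schwann cell markers were negative for 10 of 10, with a median of -0.56 and summed levels of 53.1 to 151 CPM against 59.2 to 240 CPM. Without control replicate 4 the median was -0.18 for Schwann cell markers and -0.315 for macrophage markers, and without EX replicate 4 it was -0.313 for Schwann cell markers. Fibro-adipogenic progenitor markers were negative for 8 of 10 (median -0.15), and endothelial markers for 7 of 12 (median -0.045). The mast cell protease genes Mcpt4, Cma1 and Tpsb2 were noticed after their values were seen, and none was a DEG. Mcpt4 stood at 0.303 to 0.909 CPM in the EX group against 1.32 to 3.15 CPM without overlap (log2FC -1.66 ± 0.38, edgeR adjusted p = 0.164). The groups overlapped for Cma1 (log2FC -1.53 ± 0.49, edgeR adjusted p = 0.452) and Tpsb2 (log2FC -1.15 ± 0.55, edgeR adjusted p = 0.747).

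Adipocyte markers were highest in EX replicate 1, with a summed level of 297 CPM there against 137 to 187 CPM in the other EX libraries and 147 to 219 CPM in the control group. Adipoq, adiponectin, was 12.2 CPM in EX replicate 1 and at most 0.260 CPM in the other EX libraries. Cfd, adipsin, was 80.2 CPM in that library and at most 3.08 CPM in the others of its group. Without this library the median log2 fold change of the list turned from 1.03 to -0.675. The DEGs Acot2, Acot1, Nrip1 and Ppp1r15a were called without it too, and the other 6 (Arntl, Ehhadh, Gabarapl1, Socs2, Aqp4 and Tmem140) were not, each with the same direction.

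Ribosomal protein genes were negative for 74 of 74, with a median of -0.10, and none had an unadjusted p under 0.05. Control replicate 1 had the highest mean level and control replicate 4 the lowest, and the median ran from -0.21 to 0.07 over the other settings, so its sign depended on the libraries used.

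**Figure D5:**
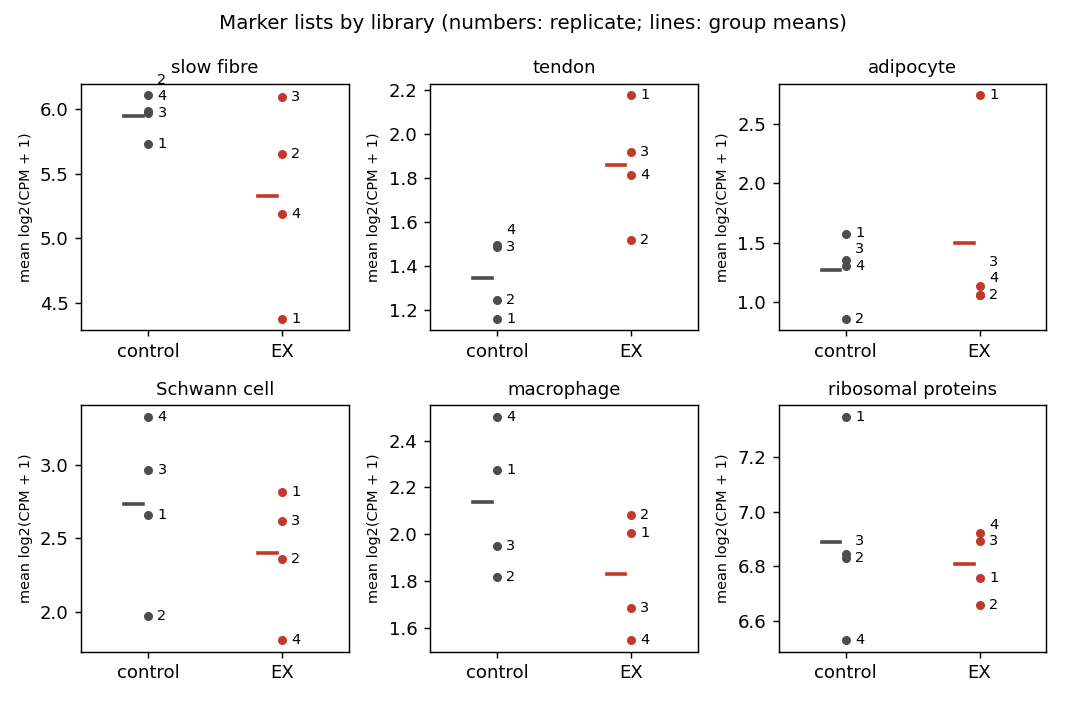
Points are the mean of log2(CPM + 1) over the genes of each list in 1 library, with the replicate number beside it and a short line for the group mean (control, n = 4; EX, n = 4). Tendon levels do not overlap between the groups (1.52 to 2.18 for EX, 1.16 to 1.49 for control), while EX replicate 1 is the lowest point for slow fibre genes and the highest for adipocyte genes.

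Extracellular matrix genes had equal shares of signs (22 positive and 23 negative of 45 tested, median -0.005). Col5a3 and Fbn1, which encode a collagen V chain and fibrillin 1, were lower in the EX group without overlap, with log2 fold changes of -0.54 ± 0.13 (edgeR adjusted p = 0.173) and -0.73 ± 0.18 (edgeR adjusted p = 0.220). Col8a1, a collagen of vessel walls, was higher without overlap, with a value of 0.59 ± 0.16 (edgeR adjusted p = 0.247). Neuromuscular junction and denervation genes were positive for 10 of 20, with a median of 0.02. Colq, the collagen tail of acetylcholinesterase, had a log2FC of -0.44 ± 0.15 (edgeR adjusted p = 0.490), and Chrna1, the alpha 1 subunit of the acetylcholine receptor, one of -0.26 ± 0.15. Six4, a homeobox factor of myogenesis, was 12.4 to 16.1 CPM against 16.3 to 21.7 CPM (log2FC -0.42 ± 0.11, edgeR adjusted p = 0.235). Genes of calcium handling were positive for 18 of 28, of glycolysis for 18 of 24, of glycogen metabolism for 10 of 17 and of the interferon response for 15 of 26, each without a DEG.

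The same training was compared in calorie-restricted mice, whose trained (CREX, n = 3) and sedentary (CR, n = 3) groups share no library with those above. None of 13068 genes was a DEG in edgeR (0.0%; 477 genes had an unadjusted p under 0.05, and DESeq2 called 17). The count rested on CREX replicate 1, without which edgeR called 100. In CREX replicates 1, 2 and 3 Myh2 stood at 3029, 270 and 219 CPM, against 1132, 1786 and 2369 CPM in the CR group. Myh7 stood at 118, 6.57 and 0.126 CPM against 430, 794 and 618 CPM. The fit without CREX replicate 1 thus kept the CREX libraries lowest in both genes. The part of fibre content in that count was not tested. The 10 DEGs of freely fed mice had the same direction in 7 cases, with CREX replicate 1 and without it. The share of all genes with the same direction was not computed. Ppp1r15a was among the 7 with values near 0, -0.05 with that library and -0.00097 without it. Socs2 stood at 22.6, 43.4 and 18.4 CPM in the CREX group and at 7.34, 11.6 and 9.67 CPM in the CR group (log2FC 1.56 ± 0.34, edgeR adjusted p = 0.999). Nrip1 stood at 47.8, 62.2 and 79.3 CPM against 32.7, 45.7 and 38.7 CPM (log2FC 0.69 ± 0.21, edgeR adjusted p = 0.999). Acot1 stood at 2.04, 0.993 and 0.754 CPM against 6.18, 3.19 and 2.90 CPM (log2FC -1.69 ± 0.44, edgeR adjusted p = 0.999). These 3 genes were apart between the restricted groups too, though none passed the test, and without CREX replicate 1 their edgeR adjusted p were 0.101, 0.0857 and 0.0693. The share of all genes apart between these groups of 3 was not computed, so their separation is a description only. Acot2 overlapped, at 29.2, 20.7 and 11.5 CPM against 52.7, 21.1 and 20.2 CPM (log2FC -0.61 ± 0.49). Ppp1r15a had a log2FC of -0.05 ± 0.17. The opposite direction was found for Tmem140 (0.02 ± 0.46), Arntl (0.41 ± 0.57) and Aqp4 (-0.44 ± 0.24).

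Clock genes had other values in restricted muscle. Per2 had a log2 fold change of -0.10 ± 0.14 there against 1.23 in freely fed mice, and Arntl one of 0.41 ± 0.57 against -1.20. Per3 had -0.43 ± 0.23 against 0.67, Hlf -0.21 ± 0.19 against 0.55 and Dbp -0.66 ± 0.22 against 0.32. Over the 13 repressors and outputs the median was -0.10 in restricted and 0.20 in freely fed mice. The difference between the diets, tested as an interaction in 1 edgeR fit over 13610 genes, gave no DEG (0.0%; 669 genes with an unadjusted p under 0.05, 4 DEGs by DESeq2). For Per2 the edgeR adjusted p of the interaction was 0.922 and for Arntl 0.941. Without CREX replicate 1, in a fit that kept CREX replicates 2 and 3 with their low Myh2 and Myh7 levels, the interaction gave 181 DEGs. In that fit the edgeR adjusted p was 0.0153 for Aqp4, 0.0597 for Per2, 0.0747 for Ppp1r15a and 0.253 for Arntl. Aqp4 had a log2 fold change of -0.68 in restricted mice without that library and of 0.65 in freely fed mice.

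In brown adipose tissue (BAT) of freely fed mice, training (EX, n = 4) against control (n = 3) gave no DEG among 13408 genes (0.0%; 972 with an unadjusted p under 0.05, 39 by DESeq2). Of the 9 muscle DEGs tested there, 7 had the same direction, among them Acot2 with a value near 0. The share of all genes with the same direction was not computed. Arntl had a log2FC of -0.62 ± 0.32 (edgeR adjusted p = 0.710) in BAT, Per2 one of 0.47 ± 0.57 and Per3 one of 0.42 ± 0.11. Dbp had a value of 0.66 ± 0.07 (edgeR adjusted p = 0.109), with 50.2 to 56.8 CPM in the EX group and 32.2 to 37.1 CPM in the control group. The median of the 13 clock repressors and outputs was 0.33 in BAT. Acot2 and Acot1 had values of -0.01 ± 0.16 and 0.01 ± 0.39 in BAT. The difference of the training effect between muscle and BAT, tested as an interaction over 14337 genes, gave no DEG (0.0%; 1070 with an unadjusted p under 0.05, 26 by DESeq2), with an edgeR adjusted p of 0.310 for Acot2, 0.448 for Gabarapl1 and 0.507 for Nrip1. BAT EX replicate 4 bore on this count, which was 80 without it. Whether muscle and BAT libraries came from the same mice is not given in the sources used here. The fit treated all libraries as independent. BAT libraries differed in muscle RNA. The skeletal muscle marker Acta1 stood at 271.5, 1001, 1387 and 1.335 CPM in BAT EX replicates 1 to 4. It stood at 176.9, 14.23 and 0.7527 CPM in the BAT control libraries. The part of muscle RNA in the BAT and interaction results was not tested.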

How the data were processed

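RNA-seq libraries of gastrocnemius from 4 EX and 4 control mice were used, with the CR and CREX muscle and the BAT libraries for comparison. The authors trimmed reads with trim-galore, mapped them to mm10 with STAR and deposited RSEM expected counts per gene symbol, without normalization. The annotation is not given in the sources used here. Expected counts were rounded to whole numbers (6.11% were not whole). Of 24770 symbols, 27 had become dates and 2 were duplicated, and none of these is named.

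Genes were tested with edgeR 4.0.16 (R 4.3.3) on the libraries compared, with TMM normalization, filterByExpr and the robust quasi-likelihood test, and DESeq2 1.42.0 as an alternative. p-values were adjusted by Benjamini-Hochberg over all genes tested. The standard error is the size of the log2 fold change over the square root of F. CPM were scaled by TMM factors (0.970 to 1.083). Principal components used log2 CPM with a prior count of 2. The procedure was tested on simulated data. Coordinates and promoters came from RefSeq (GRCm38.p6), which gave a position for 12722 of the tested symbols.

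The comparison and the gene lists were chosen with earlier results of these data known. Named were all DEGs, all tested clock and training panel genes, in other lists up to 4 members with the smallest p, and in marker lists the 2 most abundant, and not every such gene is reported here. Others are said to have been noticed afterwards. Alternatives were DESeq2, RLE size factors, other filters and fold minima, no robust option, a fit over all muscle groups, a replicate block, each library left out, and other gene choices and scaling for the components. Nothing in the sources says that EX and control mice with the same number were housed or processed together.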

Additional observations from a re-analysis of the deposited data

Results flagged for a closer look

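A library was flagged where its gap to the nearest of the other 3 libraries of its group exceeded Dixon's critical value for 4 libraries, as a share of the group's range. Of 232 groups of named genes examined, 11 held such a library, and chance flags about 1 group in 20. EX replicate 1 was flagged as the highest of its group for the adipocyte genes Adipoq (12.2 CPM, others at most 0.260), Cfd (80.2 CPM, others at most 3.08) and Cidec (10.8 CPM, others at most 0.388). EX replicate 4 was the lowest for the lipid droplet protein Plin5 (13.4 CPM, others 22.2 to 22.8) and the highest for the clock repressor Bhlhe40 (122.2 CPM, others 101.9 to 103.7). EX replicate 3 was the highest for the fatty acid binding protein Fabp3 (432.7 CPM, others 368.0 to 370.6).

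In the control group, replicate 2 was the lowest for the DEG Ehhadh (8.54 CPM, others 10.4 to 10.6). Replicate 1 was the lowest for Cry2 (20.7 CPM, others 23.5 to 23.9) and the highest for the calcium channel subunit Cacnb1 (123.5 CPM, others 114.5 to 115.4) and for the mast cell protease Mcpt4 (3.15 CPM, others 1.32 to 1.63). Replicate 4 was the highest for the collagen Col8a1 (3.12 CPM, others 2.38 to 2.48). With each of the 8 libraries left out in turn, the log2 fold change of Plin5 ran from -0.91 to -0.67.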

How the results depend on the processing

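The 10 DEGs had the same direction under all 18 other settings. Of them, 10 were called by DESeq2 on the same libraries (52 DEGs in all), with no filter on low counts (31) and with RLE size factors, 4 with a fold change above 2, and 6 by DESeq2 over all muscle groups (11). One edgeR fit over all muscle groups called 0 (smallest adjusted p 0.133, 546 genes with an unadjusted p under 0.05). With each library left out the count ran from 1 to 19, with 6 without control replicate 2, 1 without control replicate 3, 19 without control replicate 4, 5 without EX replicate 1 and 3 without EX replicate 3. Acot2 was called in each of these fits, Nrip1 and Ppp1r15a in 7 of 8, Acot1 in 6, Ehhadh, Gabarapl1 and Tmem140 in 3, Arntl and Socs2 in 2 and Aqp4 in 1. The correlation of deviations between libraries with the same number averaged 0.022 (-0.223 to 0.185). EX replicates 1 and 3 correlated best with the control library of the same number, and EX replicates 2 and 4 did not. So few correlations cannot show whether mice with the same number were handled together. With the replicate block 1 DEG was called, Acot2. Of the DEGs, 5 were in the functional lists, against 3 with a fold change above 2, 16 by DESeq2, 1 with the replicate block, 0 in the fit over all groups and 1 to 7 with a library left out. The share of all tested genes that lie in these lists was not computed. The lists were chosen with earlier results known, so these counts are descriptions only.

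For CREX against CR, 17 DEGs were called by DESeq2, and with a library left out from 0 to 100. For BAT, 39 were called by DESeq2, 7 without the filter, 1 with the replicate block and from 0 to 2 with a library left out. The interaction with diet gave 4 by DESeq2 and from 0 to 181 with a library left out (1 without CR replicate 1). The interaction with tissue gave 26 by DESeq2, 1 without the filter, 37 with the replicate block and from 0 to 80 with a library left out. The separation on the second component had an exact permutation p of 0.600 over all genes, and of 0.0286 to 0.143 with a library left out. The cause of these changes was not tested. Over all named genes, DEGs included, signs differed from those reported in 27 of 2078 values.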

Other observations

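Mss51, a gene of fast muscle that affects mitochondrial respiration, was noticed after its values were seen. It stood at 42.8 and 42.4 CPM in EX replicates 1 and 4 and at 8.63 and 8.23 CPM in EX replicates 2 and 3, while the control libraries ranged from 6.82 to 13.3 CPM. The EX libraries thus fell into 2 pairs, and no difference between the groups was called (log2FC 1.30 ± 0.68, edgeR adjusted p = 0.830). The same 2 libraries, EX replicates 1 and 4, had the lowest Myh7 levels of the 8, at 13.9 and 156 CPM, and the highest scores on the second principal component.

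Genes of fatty acid synthesis were positive for 12 of 19, with a median of 0.01 and no DEG. Mid1ip1, which activates acetyl-CoA carboxylase, was 26.8 to 46.7 CPM in the EX group and 20.9 to 29.6 CPM in the control group (log2FC 0.50 ± 0.15, edgeR adjusted p = 0.432). Genes of sterol synthesis were positive for 12 of 23, with a median of 0.001. Cacnb1, the beta 1 subunit of the calcium channel of muscle, was higher in the EX group without overlap (131 to 149 CPM against 114 to 123 CPM, log2FC 0.26 ± 0.08, edgeR adjusted p = 0.401). Angptl2, a secreted angiopoietin-like protein noticed after its values were seen, was 32.3 to 38.7 CPM against 21.7 to 28.5 CPM (log2FC 0.53 ± 0.10, edgeR adjusted p = 0.0702).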
